A study of Mus musculus with 4 samples.

Results

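The cells described here were stromal cells of the popliteal lymphatic vessels (PLVs) and superficial saphenous vein of the mouse hindlimb, picked from single-cell RNA counts by a gene rule. A cell was taken when it had at least 20 Dcn molecules per 10000, no molecule of Ptprc (the leukocyte antigen CD45), at least 3 molecules of Myoc, Pi16, Fndc1 and Pla1a together, and at least 2 times as many of these as of Cxcl14, Mgp, Gdf10 and Fmo2. Molecules were counted by unique molecular identifiers (UMIs). The rule took 1463 cells of the WT library and 549 cells of the TNF-Tg library, or 2012 of their 8879 cells (22.7%, 95% Clopper-Pearson interval 21.8 to 23.5) and of the 10837 cells of the series. They are called Myoc/Pi16 stromal cells below. The stromal cells in which Cxcl14, Mgp, Gdf10 and Fmo2 led in the same way, 476 in WT and 429 in TNF-Tg, are called Cxcl14/Mgp stromal cells and served for comparison.

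WT were male C57BL/6J mice, 9 months old by the labels. TNF-Tg were males on the same background and of the same age, which carry a human tumor necrosis factor transgene and develop inflammatory-erosive arthritis. Each library pooled the vessels of 3 mice and was sorted for live cells with high forward scatter, high side scatter or both, so there was 1 library per genotype and neither mice nor preparations were replicated. A pair of libraries (tdT1 and tdT2, 3 mice each, more than 8 months old) held tdTomato+ cells of Cspg4-Cre mice with the Ai9 reporter, in which cells that once expressed Cspg4 (NG2) and their descendants stay labelled. The rule had not been set on them, and it took 647 cells of tdT1 and 110 of tdT2. Both sexes were used for these experiments. The Y-linked genes Ddx3y and Eif2s3y had no UMI in the 454 cells of tdT2, where Xist was at 342 CPM, whereas tdT1 held Ddx3y at 82.6 CPM and Xist at 397 CPM.

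Collecting lymphatic vessels move lymph by the contraction of lymphatic muscle cells (LMCs), which use the same actin, myosin and calponin machinery as vascular smooth muscle. Around the muscle lies the adventitia, a sheath of collagen-making fibroblasts that also holds Pi16+ and Dpp4+ fibroblasts, often described as progenitors. Myoc encodes myocilin, a secreted glycoprotein, Pi16 a peptidase inhibitor, Fndc1 a fibronectin type III domain protein, Pla1a a phospholipase and Dcn the collagen-binding proteoglycan decorin.

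The Myoc/Pi16 stromal cells held 23506629 UMIs in WT, 7500253 in TNF-Tg, 8940234 in tdT1 and 658470 in tdT2. The median cell held 15997 UMIs and 3788 genes in WT and 12339 UMIs and 3259 genes in TNF-Tg. In tdT1 the medians were 15391 UMIs and 3680 genes, and in tdT2 they were 5991 UMIs and 2049 genes, so that low genes were measured with the least precision in tdT2. Mitochondrial genes gave 1.24% of the UMIs in WT, 1.19% in TNF-Tg, 3.00% in tdT1 and 1.30% in tdT2. WT and TNF-Tg shared 2 cell barcodes, neither of them from a Myoc/Pi16 stromal cell. Scrublet marked 10 of these cells as doublets in WT and 1 in TNF-Tg. Levels below are given per 1000000 UMIs of the same cells (CPM), from the total UMIs of a gene in a class of cells. The reads come from the 3′ ends of transcripts, so levels are not divided by gene length and are compared between cells, not between genes. Intervals are 95% and cover counting error only, which leaves out the differences between mice and preparations.

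The genes of the rule describe the cells and cannot be tested in them. Myoc stood at 2430.2 CPM in WT, 963 in TNF-Tg, 2498 in tdT1 and 1977 in tdT2. Pi16 stood at 1666, 1670.3, 2899 and 2337 CPM in the same order, so that Pi16 had nearly the same level in WT and TNF-Tg while Myoc was the lowest in TNF-Tg. Fndc1 was at 1082 CPM in WT and 733 in TNF-Tg, and Pla1a at 347 and 198. In WT leukocytes Myoc was at 6.66 CPM and Pi16 at 20.7. The 4 rule genes summed to a median of 76 UMIs per cell in WT and 43 in TNF-Tg. Near the limit of the rule, 16 WT and 11 TNF-Tg cells had 3 to 5 such UMIs, with a median of 2392.5 UMIs per cell in WT and 9937 in TNF-Tg, and 20 WT and 9 TNF-Tg cells stayed outside with 1 or 2.

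Most genes that mark contractile smooth muscle had few or no UMIs, so the RNA counts of these cells go against the label of LMCs. Their proteins were not analysed here, and whether droplet depth kept such transcripts low was not tested. The paper also reported limited Acta2, Myh11 and Tagln RNA. In its vessels, Acta2 reporter mice gave low tdTomato despite smooth muscle α-actin protein, and Pdgfrb-traced cells overlapped that protein. It based its label on this and other evidence, and it could not fully exclude myofibroblasts from the surrounding tissue. Acta2, which encodes smooth muscle α-actin, was at 0.255 CPM in WT, 0.800 in TNF-Tg, 0.336 in tdT1 and 0 in tdT2. Myh11, the smooth muscle myosin heavy chain, was at 0.0425 CPM in WT, 0 in TNF-Tg, 0.671 in tdT1 and 0 in tdT2. Of the 15 genes of the contractile list, 8 were under 1 CPM in WT and 9 in TNF-Tg, and Lmod1, Actg2 and Myocd had no UMI in any library. By contrast, 2 of the 15 reached 50 CPM in both WT and TNF-Tg, Cald1 among them. The paper marked its muscle cells by Cald1, Tpm1 and Pdgfrb. The list summed to 411 CPM in WT, 389 in TNF-Tg, 414 in tdT1 and 371 in tdT2, of which Cald1 (caldesmon, also made by non-muscle cells) gave 300.04, 242, 292 and 246 CPM. Cald1 did not separate them from the Cxcl14/Mgp stromal cells, which held 235 CPM in WT and 177 in TNF-Tg (log2 0.09 ± 0.13 SE, edgeR adjusted p = 0.701). Des, the muscle intermediate filament desmin, was another exception, at 33.9 CPM in WT, 28.1 in TNF-Tg, 36.6 in tdT1 and 7.59 in tdT2. It was higher than in the Cxcl14/Mgp stromal cells, which held 1.23, 4.59, 14.3 and 4.69 CPM (log2 2.58 ± 0.36, edgeR adjusted p = 8.51e-05). Of the 9 contractile genes that could be tested, Des was higher and Tpm2 lower, against 6.19% and 7.49% of all 11608 genes tested. The cells are therefore named here by the genes of the rule and not as LMCs.

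Markers of the other cell types of a vessel wall were low as well. Among the pericyte genes, Rgs5 and Higd1b had no UMI in WT, Cspg4 was at 1.74 CPM, and Pdgfrb, which fibroblasts also express, led the list at 53.4 CPM in WT, 42.1 in TNF-Tg, 80.8 in tdT1 and 162 in tdT2. Each of the 7 blood endothelial genes was under 1 CPM in WT and TNF-Tg. The lymphatic endothelial genes Flt4 (VEGFR3), Mmrn1 and Ccl21a had no UMI in WT, and Prox1, the lymphatic master regulator, was at 1.45 CPM. The exception was Pdpn (podoplanin, also made by fibroblasts), at 162 CPM in WT, 378 in TNF-Tg, 164 in tdT1 and 147 in tdT2. Of the 16 genes linked to lymphatic pacemaking and gap junctions, 10 were under 1 CPM in WT and TNF-Tg, including Ano1, the calcium-activated chloride channel of pacemaking, at 0.0851 CPM in WT. Gja1, which encodes connexin 43, was the most abundant of them in WT, at 269 CPM, and stood at 121 CPM in TNF-Tg, where Atp2a2, a calcium pump, led with 156 CPM (197 in WT). The 10 macrophage and monocyte genes summed to 174 CPM in WT and 74.3 in TNF-Tg, against 34282 CPM in WT leukocytes, with Cd74 the most abundant in WT at 46.3 CPM. The 5 neutrophil genes summed to 77.04 CPM in WT and 13.7 in TNF-Tg.

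Most genes of fibroblasts and of adventitial progenitors, in contrast, were abundant. All 12 genes of the fibroblast list passed 50 CPM in WT or TNF-Tg. Col1a2, which encodes a chain of type I collagen, was at 8308 CPM in WT, and Pdgfra, the fibroblast platelet-derived growth factor receptor, at 427 CPM in WT, 496 in TNF-Tg, 423 in tdT1 and 556 in tdT2. All 17 genes of the adventitial progenitor list passed 50 CPM in WT or TNF-Tg too, but in TNF-Tg Wnt2 (26.3 CPM), Limch1 (18.9 CPM) and Stmn4 (31.3 CPM) did not. Cd34 was at 1111, 893, 1273 and 1229 CPM and Ly6a, which encodes the surface antigen Sca-1, at 3092, 3508, 1841 and 1807 CPM in WT, TNF-Tg, tdT1 and tdT2. The most abundant transcripts in WT, after Malat1 at 26067 CPM and Gm42418, were Dcn, Fth1 (ferritin heavy chain), Gsn (gelsolin), Col1a2, S100a6, Col3a1, Fn1 and Tpt1.

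**Figure D1:**
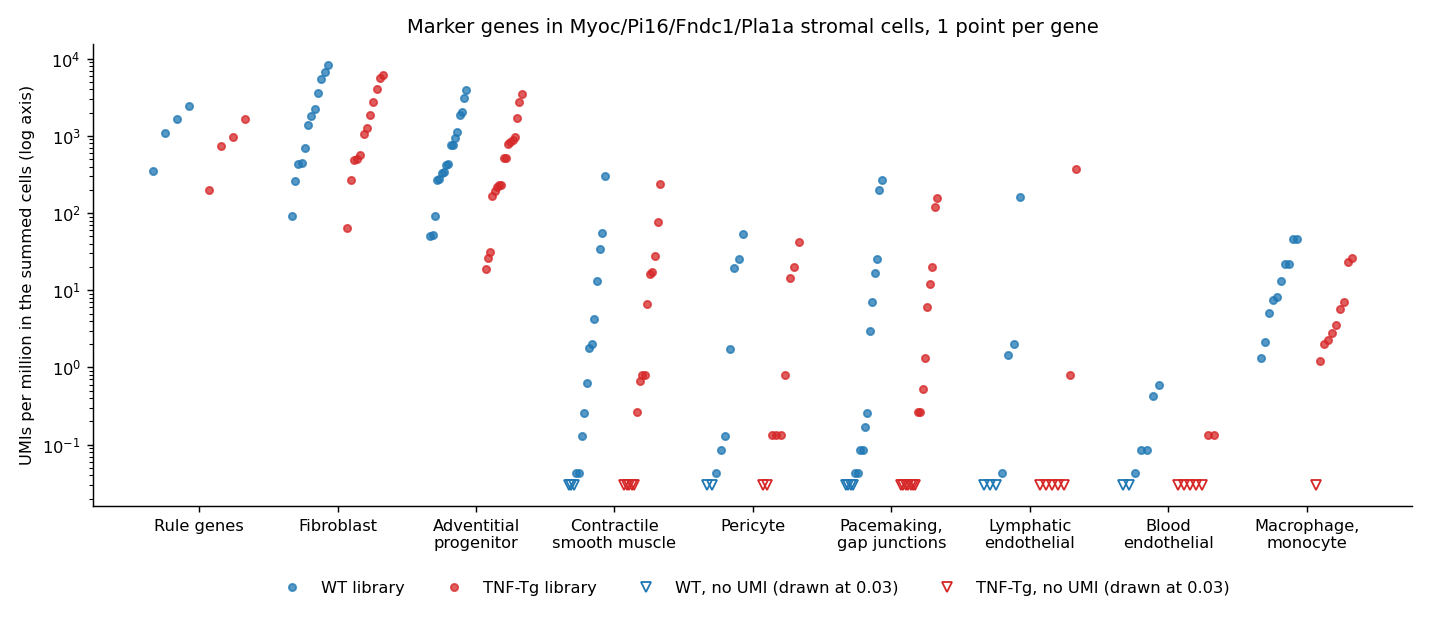
Levels of marker genes in the Myoc/Pi16 stromal cells, in CPM on a log axis, for the WT and TNF-Tg libraries; open triangles stand for no UMI. Contractile genes such as Acta2 (0.255 CPM in WT) and Myh11 (0.0425 CPM) lie near 0, but 2 of that list, Cald1 among them, lie above 50 CPM in both libraries. The fibroblast and adventitial progenitor genes lie above 50 CPM in at least 1 library.

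The first question was which genes outside the rule set these cells apart from the Cxcl14/Mgp stromal cells of the same vessels. The UMIs of each class were summed in each of the 4 libraries and tested with edgeR (quasi-likelihood), with the library as a block and the genes of the rule left out. Of 11608 genes tested, 718 (6.19%) were higher and 870 (7.49%) lower in the Myoc/Pi16 stromal cells at a Benjamini-Hochberg adjusted p under 0.01. Both classes were cut from the same counts by genes that vary together with others, so these p-values describe how steadily a gene separated the classes over 4 libraries and are not a finding about new mice. The tdT libraries, on which the rule had not been set, were also looked at on their own. Their classes were cut by the same rule genes, so genes that vary with those tend to keep their sign. The same-sign share over all genes tested is not given here, so the overlap below is a description. With WT and TNF-Tg alone, 2181 genes were called (8.6% of 11261 higher and 10.8% lower), and of the 1707 of these that could be tested in the tdT libraries alone, 1564 (91.6%) had the same sign there. The tdT libraries alone called 760 genes (5.08% of 8402 higher and 3.96% lower), and 613 were shared, which is 28.1% of the former calls and 80.7% of the latter.

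Of the genes named, the highest ratio was that of Mrgprg (chr7:143763710-143766993, minus strand, in the GENCODE annotation of GRCm38), which encodes an orphan receptor of the Mas-related family, which is best known from sensory neurons. It was at 55.4 CPM in WT, 14.1 in TNF-Tg, 212 in tdT1 and 396 in tdT2, against at most 2.04 CPM in the Cxcl14/Mgp stromal cells of any library. The classes did not overlap (log2 7.26 ± 0.29 SE, edgeR adjusted p = 1.23e-09). Edn1 (chr13:42301476-42307990, plus strand) encodes the vasoconstrictor endothelin-1. It was at 292 CPM in WT, 72.9 in TNF-Tg, 86.5 in tdT1 and 47.1 in tdT2, and at 4.30, 1.67, 1.36 and 0 CPM in the Cxcl14/Mgp stromal cells (log2 5.82 ± 0.22, edgeR adjusted p = 1.23e-09). The WT level of Edn1 was the highest of the 4, and each was above all levels of the other class. Ednra, the endothelin receptor A, had the opposite pattern, at 0.468 CPM in WT and 6.96 CPM in the Cxcl14/Mgp stromal cells (log2 −3.98 ± 0.49, edgeR adjusted p = 2.53e-05). Other vasoactive genes that were higher in the Myoc/Pi16 stromal cells were Ptgs2 (cyclooxygenase 2, log2 2.60), Adora2b (an adenosine receptor, 2.49), Ptgis (prostacyclin synthase, 1.89) and Npr1 (a natriuretic peptide receptor, 1.503). In all, 6 of the 13 vasoactive genes tested were higher and 2 were lower, against 6.19% and 7.49% of all 11608 genes tested.

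The adventitial progenitor genes separated the classes in 1 direction, with 13 of the 17 higher in the Myoc/Pi16 stromal cells and none lower. Over all 11608 genes tested, 6.19% were higher and 7.49% lower. Dpp4 (chr2:62330073-62412231, minus strand), the dipeptidyl peptidase CD26, was at 339 CPM in WT, 229.6 in TNF-Tg, 287 in tdT1 and 235 in tdT2. In the Cxcl14/Mgp stromal cells, Dpp4 was at 9.62, 4.38, 8.16 and 0 CPM, with no overlap (log2 5.30 ± 0.22, edgeR adjusted p = 1.23e-09). Limch1 (log2 4.78), Creb5 (a transcription factor, 3.30), Anxa3 (annexin A3, 3.28), Cd55 (a complement regulator, 2.99), Sema3c (a semaphorin, 2.57) and Ackr3 (a scavenging receptor for Cxcl12, 2.50) followed. Ly6a was among the 4 that were not called, at 3092 CPM in the Myoc/Pi16 and 4123 CPM in the Cxcl14/Mgp stromal cells of WT (log2 −0.19 ± 0.18, edgeR adjusted p = 0.514). Several genes of this list are known markers of Pi16+ fibroblasts, and Pi16 itself was in the rule, so their direction is tied to how the cells were chosen.

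Matrix genes fell on both sides. Of 24 proteoglycan and elastic fibre genes tested, 10 were higher and 6 lower in the Myoc/Pi16 stromal cells. Over all 11608 genes tested, 6.19% were higher and 7.49% lower. Fbn1, the microfibril protein fibrillin-1, was at 1456 CPM in WT, 865 in TNF-Tg, 1199 in tdT1 and 1339 in tdT2, against 355, 373, 327 and 321 CPM in the Cxcl14/Mgp stromal cells (log2 1.70 ± 0.18). Mfap5, which binds microfibrils, and Loxl1, which cross-links elastin, were higher by log2 1.40 ± 0.15 and 1.89 ± 0.15. Aspn (asporin) was higher by 3.48 ± 0.22. Bgn (biglycan), in contrast, was at 181, 119, 148 and 216 CPM against 1175, 588, 867 and 812 CPM (log2 −2.47 ± 0.16), and Ltbp4, which holds latent TGFβ in the matrix, was lower by 2.17 ± 0.21 on the log2 scale. Among the 17 collagens of the list, Col14a1 alone was higher, at 591, 512, 653 and 775 CPM against 68.8, 55.9, 46.2 and 61.0 CPM (log2 3.30 ± 0.17). A group of 4 collagens was lower, among them the basement membrane collagens Col15a1 (log2 −3.06) and Col4a1 (−1.55 ± 0.20). Outside the list, the basement membrane chain Col4a5 was higher (log2 2.15 ± 0.15). Fn1 (fibronectin) was higher by 2.03 ± 0.20 and Postn (periostin) by 4.45 ± 0.47. Postn spread widely between libraries, from 241 CPM in WT to 1818 CPM in tdT2.

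Of 17 chemokine and cytokine genes tested, 2 were higher and 4 lower in the Myoc/Pi16 stromal cells, against 6.19% and 7.49% of all 11608 genes. Cxcl12, a chemokine that binds Cxcr4 and Ackr3, was at 148 CPM in WT, 677 in TNF-Tg, 289 in tdT1 and 343 in tdT2, against 869, 1375, 1075 and 936 CPM in the Cxcl14/Mgp stromal cells (log2 −1.82 ± 0.19, edgeR adjusted p = 5.91e-06). Gas6, a ligand of the Axl and Mertk receptors, was lower by 2.67 ± 0.25 on the log2 scale, from 4184 to 355 CPM in WT. Ccl19 (log2 −2.07 ± 0.23), Vcam1 (−2.24 ± 0.18), Timp1 (−2.38 ± 0.29) and Apod (apolipoprotein D, −1.58 ± 0.17) were lower too. The named genes far on this side included Dkk3 (−3.78 ± 0.22), a secreted glycoprotein of the Dickkopf family, Adcyap1r1 (−3.69 ± 0.17), the receptor of the neuropeptide PACAP, and F3 (−3.44 ± 0.28), the tissue factor that starts coagulation. F3 was at 15.6 CPM in WT, 29.3 in TNF-Tg, 66.0 in tdT1 and 132 in tdT2, below the 258 to 852 CPM of the Cxcl14/Mgp stromal cells.

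Transcription factors also differed, with 7 of 24 higher and 7 lower, against 6.19% and 7.49% of all 11608 genes tested. Osr2, a zinc finger factor of mesenchyme, was at 90.6, 54.7, 185 and 135 CPM against 6.34, 8.98, 19.7 and 23.5 CPM (log2 3.04 ± 0.21). Meox2, a homeobox factor, was lower by 2.28 ± 0.16 on the log2 scale, Gli1, the effector of hedgehog signalling, by 2.75 ± 0.21, Klf5 by 3.76 ± 0.28 and Id4 by 2.90 ± 0.22. In the remaining groups, 8 of 32 growth factor and Wnt genes were higher and 11 lower, against the same 6.19% and 7.49%. None of the 14 glycolysis genes or of the 6 metallothionein and zinc transporter genes was called. Among the growth factors, Fgf2 (log2 2.36 ± 0.17), Tgfb2 (1.40 ± 0.19) and Vegfd, a lymphangiogenic factor (0.95 ± 0.16), were higher. Hbb-bs was also called higher (log2 3.82 ± 0.74, edgeR adjusted p = 0.00147), but 97.6% of its 3050 UMIs in TNF-Tg came from 1 cell.

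**Figure D2:**
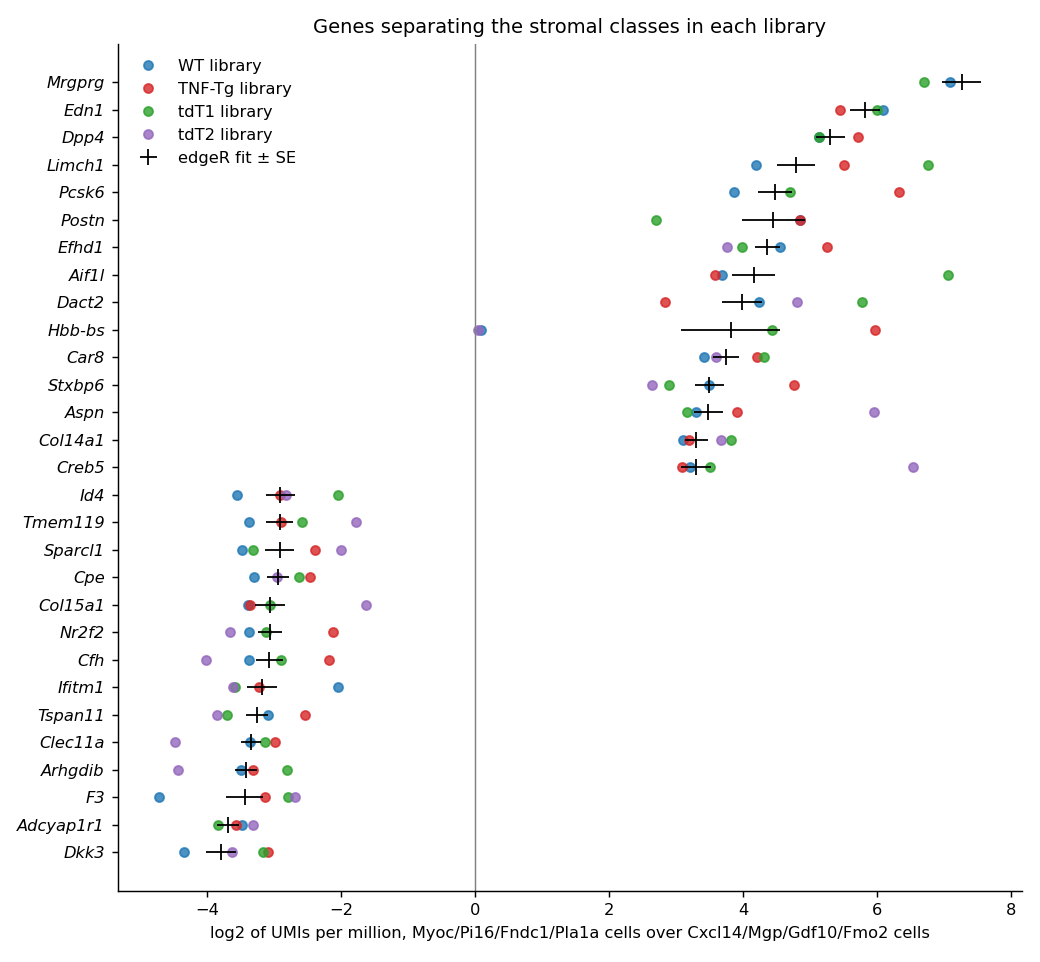
Log2 ratio of the level in Myoc/Pi16 stromal cells over that in Cxcl14/Mgp stromal cells for genes chosen among those with a mean of 50 CPM or more in the higher class, as a point for each library and the edgeR estimate with its SE; points are missing where a class had no UMI. Mrgprg (7.26), Edn1 (5.82) and Dpp4 (5.30) lie at the top of the genes drawn, and Dkk3 (−3.78) lies at the bottom; Ednra (−3.98) was under that level and is not drawn.

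The genes that set the Myoc/Pi16 stromal cells furthest above the cells outside the stroma, most of which were leukocytes, were given as a description. They included Col4a5, Limch1, Edn1, Sema3e, Anxa8, Tek, Pcsk6, Galnt16 and Nox4. Tek, the angiopoietin receptor usually read as an endothelial gene, was at 137 CPM in WT, 72.7 in TNF-Tg, 146 in tdT1 and 117 in tdT2, and at 0.357 CPM in WT leukocytes. It was also above the Cxcl14/Mgp stromal cells, which held 9.18 to 21.8 CPM (log2 2.94 ± 0.16, edgeR adjusted p = 1.22e-08). Pcsk6, a proprotein convertase, was at 80.7, 49.998, 176 and 36.4 CPM, and Sema3e, a semaphorin, at 52.3, 36.5, 45.4 and 7.59 CPM.

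The second question was how TNF-Tg differed from WT in these cells. With 1 library of each genotype, no p-value was computed, and genotype and preparation cannot be told apart. Mouse Tnf had 5 UMIs in the WT cells and none in the TNF-Tg cells, so its level there was at most 0.400 CPM if 3 UMIs are taken as the limit that a count of 0 allows, and the human transgene was not analysed here. Of the 3002 genes with at least 50 CPM in either library, 95 (3.16%) were at least 2-fold higher and 98 (3.26%) at least 2-fold lower in TNF-Tg, and the median log2 ratio was 0.0086. Of these, 51 of the 95 were under 50 CPM in WT and 53 of the 98 were under it in TNF-Tg. Such genes were counted only through the library in which they were high and had to differ, so the counts in gene lists below are a description, and those members are told apart. The share past 2-fold over all genes at 50 CPM in both libraries is not given here. Counts of list members at 50 CPM in both therefore have no matching background and are not read as enrichment. In the Cxcl14/Mgp stromal cells the corresponding shares were 4.94% and 9.57% of 2853 genes, and in leukocytes they were 5.47% and 8.86% of 3127. Over all stromal cells taken as 1 class, 4.22% of 2988 genes were higher and 5.62% lower. The tdT libraries were set beside each gene as further cells without the transgene, a choice made after the data were seen. They differ from both in the sort, the reporter, the sex of the mice and, for tdT1, the sequencer. Of the 95 genes, 82 (86.3%) were higher in TNF-Tg than in each of the 3 other libraries, as were 39.8% of all 3002 genes, and 64 of the 98 (65.3%) were lower than in each, against 27.5%. Both shares include WT, on which the genes were chosen. As means of single-cell CPM, in which deep cells weigh no more than shallow ones, 55 genes were 2-fold higher and 59 lower. With the 50 CPM limit not applied again to these means, 65 of the 95 genes and 54 of the 98 were still past 2-fold, and all kept their direction.

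**Figure D3:**
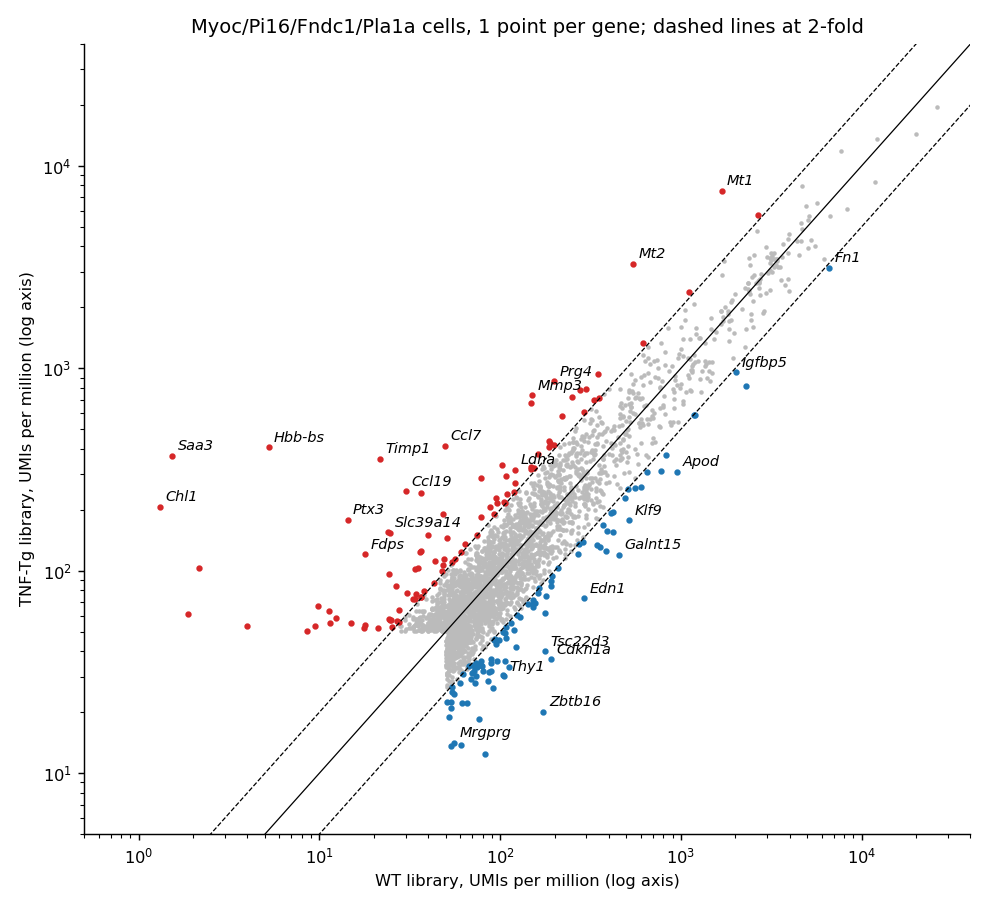
Level of each gene in the Myoc/Pi16 stromal cells of WT (horizontal) and TNF-Tg (vertical), in CPM on log axes, with dashed lines at a 2-fold difference. Of 3002 genes, 95 lie above the band (red) and 98 below it (blue), with Saa3 (1.53 against 369 CPM) and Zbtb16 (174 against 20.1 CPM) among the furthest.

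Saa3 and Chl1 had the highest ratios of the genes named. Saa3 (chr7:46711998-46715700, minus strand), which encodes the acute-phase protein serum amyloid A3, was at 1.53 CPM in WT, 369 in TNF-Tg, 0.559 in tdT1 and 0 in tdT2. TNF-Tg was 241-fold above WT (log2 7.91, interval 7.44 to 8.43), with 2770 UMIs against 36. Chl1, a cell adhesion molecule of neurons, was at 1.32 CPM in WT, 207 in TNF-Tg, 1.34 in tdT1 and 4.56 in tdT2 (log2 7.30, 6.79 to 7.86). Both genes were also higher in the Cxcl14/Mgp stromal cells of TNF-Tg, where Saa3 went from 1.64 to 71.8 CPM and Chl1 from 2.87 to 100.2 CPM. Lbp, the lipopolysaccharide-binding protein, was at 350.3 CPM in WT, 716 in TNF-Tg, 345 in tdT1 and 193 in tdT2, and Serpina3n, a protease inhibitor, at 188, 429, 103 and 60.7 CPM. C3, the central complement component and the most abundant gene of this list, was at 3889.8 CPM in WT and 4354 in TNF-Tg, which is within the 4992 CPM of tdT1. Of the 16 acute-phase and complement genes, 12 reached 50 CPM in either library. Saa3, Lcn2 and Cp did so in TNF-Tg alone, and of the 8 that did so in both, Lbp and Serpina3n were 2-fold higher and none was lower.

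Of the 23 chemokines and cytokines, 10 reached 50 CPM in either library. Ccl2, Ccl7, Ccl19 and Il33 did so in TNF-Tg alone. Of the 6 that did so in both, Cxcl12 was 2-fold higher, Cxcl13 was 2-fold lower, and the remaining 4 did not reach 2-fold, with log2 ratios of 0.94 for Cxcl1, 0.36 for Ccl11, 0.23 for Ccl8 and −0.26 for Csf1. Ccl7, a monocyte chemokine, was at 49.8 CPM in WT, 415 in TNF-Tg, 398 in tdT1 and 147 in tdT2 (log2 3.06, 2.96 to 3.16). Ccl2 was at 24.0 CPM in WT and 155 in TNF-Tg (log2 2.69), but at 377 CPM in tdT1, so TNF-Tg lay inside the range of the other libraries. For Ccl7 the same tdT1 library came close to TNF-Tg. Ccl19, which draws dendritic cells and T cells, was at 30.1, 246, 10.4 and 69.9 CPM (log2 3.03, 2.91 to 3.16), although reads could be shared with near-identical copies of this gene. Il33, an alarmin, was at 36.4, 241, 87.1 and 48.6 CPM (log2 2.73, 2.61 to 2.85), and Cxcl12 at 148, 677, 289 and 343 CPM (log2 2.19, 2.13 to 2.26). TNF-Tg was above each of the others for Ccl19, Il33 and Cxcl12. Cxcl13, the B-cell chemokine, went the other way, at 561 CPM in WT, 257 in TNF-Tg, 162 in tdT1 and 152 in tdT2 (log2 −1.13, −1.20 to −1.06). In the Cxcl14/Mgp stromal cells Cxcl13 went from 274 to 544 CPM.

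Of 23 matrix proteases and their inhibitors, 15 reached 50 CPM in either library, Timp1 in TNF-Tg alone. Of the 14 that did so in both, 1 was 2-fold higher and none lower. Of the 15, 4 (Timp1 among them) were above and 5 below every other library, against 39.8% and 27.5% of all 3002 genes. Timp1, a metalloproteinase inhibitor, was at 21.5 CPM in WT, 358 in TNF-Tg, 6.93 in tdT1 and 28.9 in tdT2 (log2 4.06, 3.92 to 4.20). The 1 of 14 was Mmp3, the metalloproteinase stromelysin-1, at 151, 737, 150.4 and 395 CPM (log2 2.29, 2.23 to 2.35). Prg4, the joint lubricant lubricin and not of that list, was at 198, 865, 12.1 and 9.11 CPM (log2 2.13, 2.07 to 2.18). Timp1, Mmp3 and Prg4 were highest in TNF-Tg. Ptx3, a long pentraxin, was at 14.3, 179, 111 and 91.1 CPM (log2 3.64, 3.46 to 3.82), with the tdT libraries between WT and TNF-Tg. In the structural matrix, none of the 13 listed collagens at 50 CPM in either library passed 2-fold. Outside the list, the basement membrane chains Col4a4 (53.8 CPM in WT, 13.6 in TNF-Tg, 55.7 in tdT1 and 18.2 in tdT2, log2 −1.98), which reached 50 CPM in WT but not in TNF-Tg, and Col4a5 (129 CPM in WT and 58.8 in TNF-Tg, log2 −1.14) were lower. Of the 19 proteoglycan and elastic fibre genes at 50 CPM in both, none was 2-fold higher and Aspn was lower (387 to 125 CPM, log2 −1.63), and Omd (osteomodulin), which reached 50 CPM in WT alone, went from 61.2 to 22.1 CPM. Fn1, at 6635 CPM in WT, 3139 in TNF-Tg, 5957 in tdT1 and 5286 in tdT2, was lower by 1.08 on the log2 scale (interval −1.10 to −1.06).

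Genes known to be induced by TNF through NF-κB were mixed in these cells. Of 22, 8 reached 50 CPM in either library, Sod2 in TNF-Tg alone, and of the 7 that did so in both, Tnfaip6 was 2-fold higher and none was lower. Sod2, the mitochondrial superoxide dismutase, was at 48.2 CPM in WT, 192 in TNF-Tg, 45.7 in tdT1 and 60.7 in tdT2 (log2 1.99, 1.88 to 2.11). Tnfaip6, a hyaluronan-binding protein, was at 107, 295, 709 and 429.8 CPM, so TNF-Tg was above WT and below both tdT libraries. Nfkbia, which encodes IκBα, was at 227 CPM in WT, 251 in TNF-Tg, 1065 in tdT1 and 248 in tdT2. Icam1 stayed under 50 CPM in both genotypes, at 13.3 and 34.8 CPM, and Vcam1 at 4.76 and 11.5 CPM. The tdT1 cells also held high levels of immediate-early genes, with Fos at 4602 CPM against 1144 in WT and 772 in TNF-Tg, and the part of this in their high Nfkbia, Ccl2 and Ptgs2 was not tested. Of 20 interferon-stimulated genes, 7 reached 50 CPM and none passed 2-fold in either direction. Of the 10 glycolysis genes at 50 CPM in both, Ldha (121 to 315 CPM) and Tpi1 (74.7 to 150.1 CPM) were 2-fold higher and none was lower. With Hk2, which reached 50 CPM in TNF-Tg alone, 9 of 11 were above all other libraries, against 39.8% of all 3002 genes.

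Metallothioneins, small proteins that bind zinc and copper, were among the most abundant genes on the higher side. Mt1, the most abundant of the 95, was at 1680.5 CPM in WT, 7551 in TNF-Tg, 2503 in tdT1 and 714 in tdT2 (log2 2.17, 2.15 to 2.19). Mt2 was at 544, 3281, 1126 and 135 CPM (log2 2.59, 2.56 to 2.62). TNF-Tg was above every other library for both. Slc39a14, which encodes a zinc importer, was higher too, at 24.5 CPM in WT, 154 in TNF-Tg, 21.0 in tdT1 and 18.2 in tdT2 (log2 2.65, 2.51 to 2.80). Of the 6 metallothionein and zinc transporter genes, 4 reached 50 CPM in either library, Slc39a14 in TNF-Tg alone. Of the 3 that did so in both, Mt1 and Mt2 were 2-fold higher and none was lower. Mt1 and Mt2 lie next to each other on chromosome 8 and their promoters are known to carry metal response elements, which the zinc-sensing factor Mtf1 binds. The promoters are shown because both genes moved together. Each runs from 250 bases before to 50 bases after the RefSeq start on the plus strand of GRCm38, chr8:94178839-94179138 for Mt1 and chr8:94172368-94172667 for Mt2, and capitals mark the core TGCACNC or TGCGCNC on either strand.
Mt1: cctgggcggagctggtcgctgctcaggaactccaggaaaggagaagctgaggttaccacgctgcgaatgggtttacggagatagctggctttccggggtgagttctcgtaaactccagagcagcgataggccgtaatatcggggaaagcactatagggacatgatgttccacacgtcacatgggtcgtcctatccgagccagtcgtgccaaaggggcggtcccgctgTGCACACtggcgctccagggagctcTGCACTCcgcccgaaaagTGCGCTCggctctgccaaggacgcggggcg
Mt2: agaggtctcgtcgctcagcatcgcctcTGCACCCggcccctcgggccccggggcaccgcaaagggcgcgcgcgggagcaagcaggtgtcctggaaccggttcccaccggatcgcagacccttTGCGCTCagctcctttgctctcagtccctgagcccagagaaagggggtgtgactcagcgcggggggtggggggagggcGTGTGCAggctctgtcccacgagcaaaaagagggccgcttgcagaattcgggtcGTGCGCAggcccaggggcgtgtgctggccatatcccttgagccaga
The Mt1 window held 3 matches and the Mt2 window 4. At least 1 match was in 25.7% of the 32851 windows of this length, at least 3 in 1.97% and at least 4 in 0.517%. The matches describe the letters and are not measured binding sites.

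Of 18 genes induced by glucocorticoids, 14 reached 50 CPM in either library. The list was chosen with earlier results of these data known. The paper had already placed Zbtb16, Klf9, Galnt15, Apod, Mt1 and Mt2 among the genes most changed in its TNF-Tg LMCs. The list is thus not an independent set, and its counts are a description. Zbtb16, Tsc22d3, Cdkn1a, Fkbp5 and Sult1e1 did so in WT alone. Of the 9 that did so in both, 4 were 2-fold lower (Klf9, Errfi1, Galnt15 and Apod) and 2 were higher (Mt1 and Mt2, which are on this list). Zbtb16 (chr9:48654297-48836222, minus strand), which encodes the zinc finger repressor PLZF, was at 174 CPM in WT, 20.1 in TNF-Tg, 90.2 in tdT1 and 30.4 in tdT2. It had the lowest ratio of the genes named, at a log2 of −3.11 (interval −3.35 to −2.87), and TNF-Tg was below every other library. Tsc22d3, the glucocorticoid-induced leucine zipper, was at 176, 40.1, 146 and 41.0 CPM (log2 −2.13, −2.31 to −1.96). Klf9 was at 515, 178, 498 and 188 CPM (log2 −1.54), Errfi1, an inhibitor of EGF receptor signalling, at 773, 312, 1410.2 and 368 CPM (−1.31), and Galnt15 at 454, 120.0, 246 and 114 CPM (−1.92). For Tsc22d3, Klf9 and Galnt15, tdT2 stood beside TNF-Tg, while WT and tdT1 were higher. Fkbp5, a chaperone that tunes the glucocorticoid receptor, was at 108 CPM in WT, 46.7 in TNF-Tg, 48.3 in tdT1 and 16.7 in tdT2, so TNF-Tg was within the range of the other libraries. The receptor itself, Nr3c1, was at 162, 123, 214 and 185 CPM.

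The lower side also held cell cycle, surface and growth factor genes. Cdkn1a, which is on the glucocorticoid list, encodes the cell cycle inhibitor p21 and was at 190.1 CPM in WT, 36.5 in TNF-Tg, 258 in tdT1 and 178 in tdT2 (log2 −2.38, −2.56 to −2.20). Thy1, the surface antigen CD90, was at 105, 30.1, 54.4 and 106 CPM (log2 −1.80, −2.004 to −1.604), and Apod, also on that list, at 956, 308, 1553 and 1159 CPM (−1.63, −1.70 to −1.57). TNF-Tg was the lowest of the 4 libraries for all of these. Of 14 growth factor and Wnt genes at 50 CPM in both libraries, 2 were 2-fold lower and none higher: Gas6 (355 to 131 CPM) and Igfbp5, the most abundant, at 2025 CPM in WT, 959 in TNF-Tg, 2444 in tdT1 and 2328 in tdT2. Another 5 reached 50 CPM in WT alone, among them Bmp4 (60.4 to 13.7 CPM), Wnt2 (91.5 to 26.3) and Ccn5 (85.3 to 28.5). Edn1, among the genes furthest above the Cxcl14/Mgp stromal cells, was 4.01-fold lower in TNF-Tg than in WT (interval of the log2 ratio −2.13 to −1.88), at a level between those of tdT1 and tdT2. Mrgprg was 3.92-fold lower, at 14.1 CPM against 55.4 CPM in WT, and both tdT libraries were above WT. Of the 14 adventitial progenitor genes at 50 CPM in both, Igfbp5 and Procr were 2-fold lower and none was higher. Of all 17, 9 were below every other library and 1 above, against 27.5% and 39.8% of all 3002 genes. The 9 include Wnt2 and Limch1, which reached 50 CPM in WT alone and so had to be lower than in WT.

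Haemoglobin genes stood among the highest ratios, with Hbb-bs at 5.23 CPM in WT and 407 in TNF-Tg, and Hba-a1 at 2.17 and 103 CPM. As 2978 of the 3050 Hbb-bs UMIs of TNF-Tg lay in 1 cell, these ratios describe that cell and not the genotype. The macrophage and neutrophil transcripts, in contrast, were lower in TNF-Tg, with C1qa at 22.1 and 2.27 CPM and Lyz2 at 46.1 and 26.4 CPM, and their part in other differences was not tested.

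The cells were next set apart by the rule gene with the most UMIs in each cell. In WT, Myoc led in 771 cells (52.7%, 50.1 to 55.3), Pi16 in 452 (30.9%, 28.5 to 33.3) and Fndc1 in 188 (12.9%, 11.2 to 14.7). In TNF-Tg, Myoc led in 120 (21.9%, 18.5 to 25.6), Pi16 in 324 (59.0%, 54.8 to 63.2) and Fndc1 in 80 (14.6%, 11.7 to 17.8), with exact Clopper-Pearson intervals. As these genes chose the cells, and the level of Myoc itself was lower in TNF-Tg, the shares are a description. Median depths were 16358, 15046 and 16201.5 UMIs for Myoc-, Pi16- and Fndc1-led cells of WT and 11168, 13358.5 and 11292 UMIs in TNF-Tg. Within WT the Pi16-led and the Myoc-led cells were nearly alike: of 2826 genes, 7 (0.248%) were 2-fold higher and 4 (0.142%) lower in the Pi16-led cells, and the median absolute log2 ratio was 0.082. Within TNF-Tg, 69 of 2886 genes (2.39%) were 2-fold higher and 58 (2.01%) lower in the Pi16-led cells, with a median absolute log2 ratio of 0.24. The sums behind these ratios were smaller in TNF-Tg (4842493 and 1436819 UMIs, against 7025677 and 12673219 in WT), which adds counting noise, and the difference between the libraries was not tested.

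The genotypes were also set side by side within these cells, as a description, since Myoc itself was lower in TNF-Tg and cells led by the same gene need not be like cells in both libraries. In the Pi16-led cells, 166 of 3080 genes (5.39%) were higher and 192 (6.23%) lower in TNF-Tg. In the Myoc-led cells 37 of 2911 (1.27%) were higher and 52 (1.79%) lower, and in the Fndc1-led cells 46 of 3107 (1.48%) were higher and 81 (2.61%) lower. Several genes on the higher side differed between these cells. Mt1 went from 1620.2 to 10174 CPM in the Pi16-led cells (log2 2.65), from 1732 to 2325 CPM in the Myoc-led cells (0.42) and from 1680 to 2555 CPM in the Fndc1-led cells (0.60). Slc39a14 had log2 ratios of 3.23, 0.08 and 0.74 in Pi16-, Myoc- and Fndc1-led cells. Ccl2 had log2 ratios of 3.25, −0.66 and 1.71 in the same order, but 123 of its 334 UMIs in the Myoc-led cells of WT lay in 1 cell. Without that cell its level was 16.7 CPM in the Myoc-led cells of both WT and TNF-Tg (24 UMIs), and 10.1% of them held a UMI in WT and 12.5% in TNF-Tg. Timp1 (4.33, 2.76 and 3.01), Cxcl12 (2.38, 1.26 and 1.68), Mmp3 (2.34, 1.76 and 2.61) and Chl1 (6.88, 5.62 and 4.82) were higher in TNF-Tg in all of them. Genes on the lower side were of both kinds. Some had similar ratios in Pi16-, Myoc- and Fndc1-led cells: Zbtb16 had −3.23, −2.71 and −2.93, Cdkn1a −2.45, −2.33 and −2.10, Klf9 −1.503, −1.41 and −1.62, and Fkbp5 −1.19, −1.07 and −1.02. Others differed widely: Mrgprg had −3.00, −0.46 and −3.38, Tsc22d3 −2.64, −1.46 and −1.33, Apod −1.88, −0.85 and −0.90, Omd −2.12, −0.38 and −1.30, and Thy1 −1.63, −3.74 and −3.02. Cells that 1 rule gene leads are few in TNF-Tg, and none of these differences between cells was tested.

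**Figure D4:**
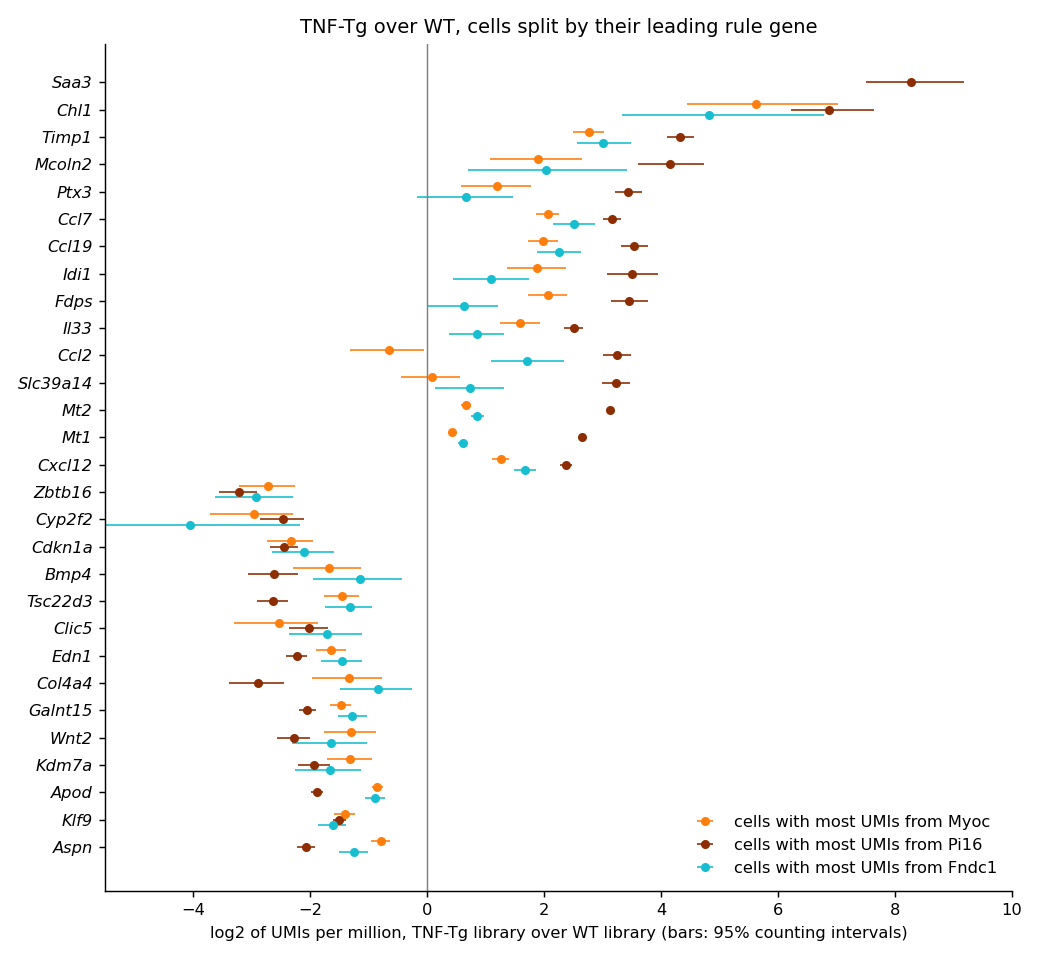
Log2 ratio of TNF-Tg over WT in the Myoc-, Pi16- and Fndc1-led cells for named genes, with 95% intervals for counting error; Saa3 has a point for the Pi16-led cells alone. Mt1 lies at 2.65 in the Pi16-led cells and at 0.42 and 0.60 in the others, while Zbtb16 lies between −3.23 and −2.71 in all 3.

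In TNF-Tg, all 2770 UMIs of Saa3 came from Pi16-led cells, of which 43 of 324 held at least 1. No UMI was seen in the 120 Myoc-led or the 80 Fndc1-led cells, which allows a share of cells with a UMI of up to 2.5% and 3.75% and does not limit the cells that express Saa3. Leukocytes of TNF-Tg held Saa3 UMIs in 8.08% of cells, at 51.8 CPM and a median depth of 10504.5 UMIs, against 7.83% of the Myoc/Pi16 stromal cells at 369 CPM and 12339 UMIs. How many of the leukocyte UMIs came from free RNA was not tested, so neither share is read as a share of expressing cells. For Chl1, 161 of the 324 Pi16-led, 6 of the 120 Myoc-led and 12 of the 80 Fndc1-led cells held a UMI, against 0.813% of leukocytes. The 43 cells with Saa3 were deeper than the other 281 Pi16-led cells, with a median of 24040 against 12525 UMIs. Their Mt1 level was 19346 CPM against 7917 CPM, and their Cxcl12 level 1844 CPM against 578 CPM, while Zbtb16 was low in both, at 10.5 and 19.3 CPM. A UMI of Chl1 was present in 38 of the 43 cells and of Timp1 in 40. As these cells were picked by a gene high in TNF-Tg, the values are a description of 1 library. In WT, 17 cells held Saa3 UMIs, and their Mt1 level was 1393 CPM, close to the 1680.5 CPM of all WT cells.

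Single cells showed how far these shifts were shared. The median Mt1 level per cell, in UMIs per 10000, was 12.9, 11.2 and 12.4 in Myoc-, Pi16- and Fndc1-led cells of WT, and 9.81, 35.9 and 13.6 in TNF-Tg. The Pi16-led cells of TNF-Tg spread widely for Mt1, from 5.64 at the 10th percentile to 209 at the 90th. Klf9 moved in the typical cell of each kind, with medians of 4.81, 4.61 and 4.82 in WT and 1.61, 1.46 and 1.42 in TNF-Tg. For Zbtb16 the medians were 1.54, 1.45 and 1.502 in WT and 0 in all 3 kinds of TNF-Tg cells, where the lower depth makes 0 more frequent. Cxcl12 had medians of 0.670, 0.644 and 0.917 in WT and 1.67, 3.76 and 3.01 in TNF-Tg.

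**Figure D5:**
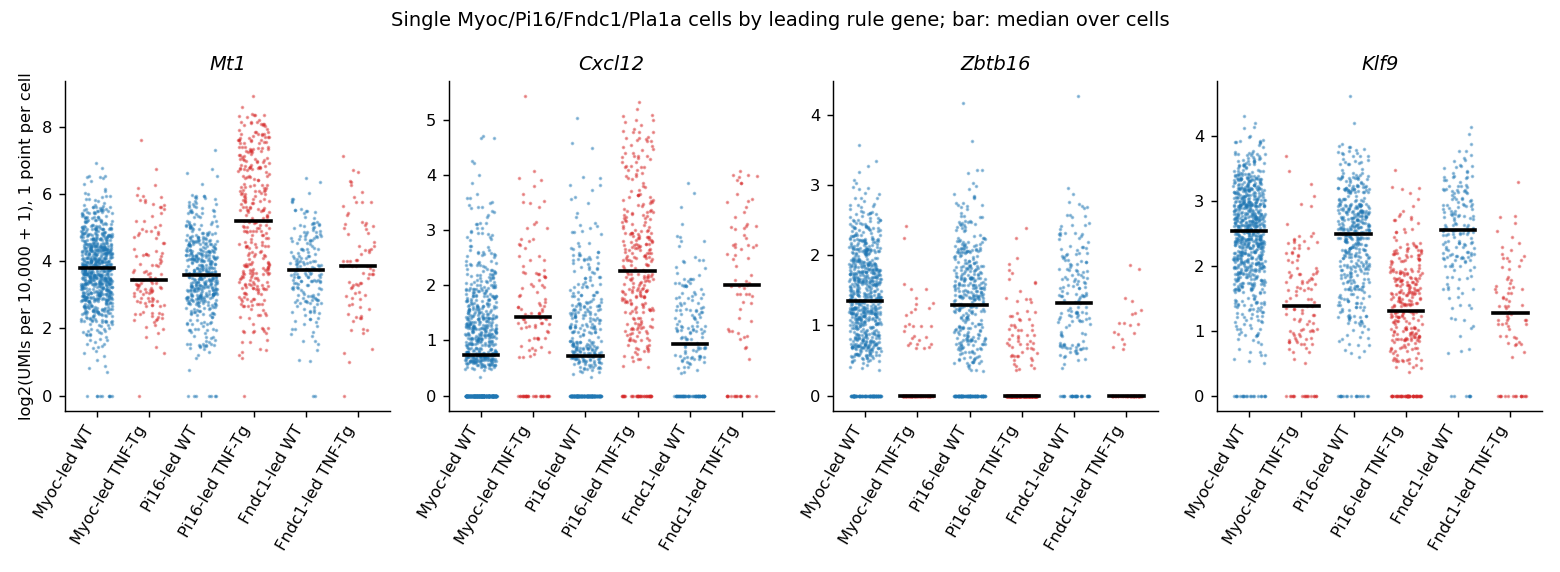
Single-cell levels of Mt1, Cxcl12, Zbtb16 and Klf9 in Myoc-, Pi16- and Fndc1-led cells of WT and TNF-Tg, as log2(UMIs per 10000 + 1); each point is a cell and bars are medians. Mt1 reached the highest values in the Pi16-led TNF-Tg cells (median 35.9 UMIs per 10000), and Klf9 was lower in TNF-Tg for each kind of cell (medians 1.42 to 1.61 against 4.61 to 4.82).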

How the data were processed

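Vessels of 3 mice per library were dissociated, sorted and captured in droplets (10x Genomics, 3′). The deposited matrices hold UMI counts per gene and cell, whole numbers without normalization, which the authors made with Cell Ranger (3.1.0 for tdT1 and 6.0.1 for the others, per the file headers). The labels also name Seurat 4.0.3 and the mm10 build. The libraries held 5488 cells and 68773605 UMIs (WT), 3391 and 37557627 (TNF-Tg), 1504 and 14256192 (tdT1) and 454 and 2357031 (tdT2). No cell was removed, and doublets were marked by Scrublet (scanpy 1.11.5) but kept. Genes were joined by identifier (30406 shared by all matrices). Of symbols with several identifiers, the one with the most UMIs kept the name.

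The members, the gene lists and the comparisons were chosen with earlier results of these data known. The 10 genes of the rule were left out of all tests and counts of genes. Sums of UMIs per class and library were compared with edgeR 4.0.16 (R 4.3.3, limma 3.58.1): quasi-likelihood test, TMM, filterByExpr, library as a block, Benjamini-Hochberg adjusted p under 0.01. DESeq2 1.42.0 was an alternative. Both were tested on simulated data. For TNF-Tg and WT, ratios of CPM have exact conditional binomial intervals (95%), computed in Python 3.11.15 with scipy 1.17.1, over genes at or above 50 CPM in either library. Where no UMI was seen, the limit given is that of 3 UMIs. The seed was 42.

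Genes named were the 15 highest and 15 lowest of each comparison (for the classes, among calls of 1 sign in every library where both classes could be compared, at a mean of 50 CPM in the higher class; rule, mitochondrial, ribosomal and unnamed genes were passed over), the members of the gene lists, the 10 most abundant genes, and the 10 furthest above cells outside the stroma. Gene positions are from GENCODE (GRCm38) and promoters from RefSeq (GRCm38.p6), searched for the motif on both strands. The alternatives changed the limits of the rule, the depth, the doublets, the filters, the scaling, the tool and the libraries used. Other stromal cells and leukocyte types were not analysed here. A gene that this rule would name is not reported here.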

Additional observations from a re-analysis of the deposited data

Results flagged for a closer look

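Thy1 moved in opposite directions in the stromal cells compared. In the Myoc/Pi16 stromal cells it went from 105 CPM in WT to 30.1 CPM in TNF-Tg, a log2 ratio of −1.80, and in the Cxcl14/Mgp stromal cells from 21.9 to 57.0 CPM, a log2 ratio of 1.38. Chrdl1, which encodes a secreted inhibitor of bone morphogenetic proteins, went from 36.4 to 73.9 CPM in the Myoc/Pi16 stromal cells (log2 1.02) and from 381 to 189.7 CPM in the Cxcl14/Mgp stromal cells (log2 −1.004). Each direction rests on 1 library per genotype, and the difference was not tested.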

How the results depend on the processing

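Counts of genes depended on the limits more than their directions did. Without the filter on low counts, 1091 genes were higher in the Myoc/Pi16 than in the Cxcl14/Mgp stromal cells, and with the tdT libraries alone 427 were higher and 333 lower. Leaving out 1 library gave 496 to 688 higher and 489 to 816 lower, the least without WT (489) and without TNF-Tg (491). Of 540 values of 30 named genes, 537 kept their direction and call. The exceptions were Hbb-bs with DESeq2 (adjusted p = 0.143), without TNF-Tg (0.0768) and without tdT1 (0.0203). In the Myoc/Pi16 stromal cells, 1 cell held 2978 of its 3050 UMIs in TNF-Tg and 1 cell held 497 of 523 in tdT1. The cause was not tested. For TNF-Tg over WT, 55 genes were 2-fold higher and 59 lower as means of single-cell CPM, 225 and 241 from 10 CPM, and 43 and 28 from 200 CPM. With all stromal cells, 168 were lower. Choices added after seeing the data gave 166 and 192 for Pi16-led, 37 and 52 for Myoc-led and 46 higher for Fndc1-led cells. Of 1179 values of 59 genes, 4 turned: Hba-a2 (−0.55 in Fndc1-led cells, −0.28 without the cell with most Hbb-bs), Ccl2 (−0.66 in Myoc-led cells, but 0.0024 without the 1 WT cell that held 123 of 334 UMIs) and Cxcl13 (0.29 in Fndc1-led cells), and 257 moved in size. No paired analysis was possible because the WT and TNF-Tg libraries shared no replicate of the same origin and gave no test between genotypes. Depth limited tdT2 and the Myoc- and Fndc1-led cells of TNF-Tg the most.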

Other observations

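Genes of sterol synthesis, chosen after their values had been seen, were higher in the Myoc/Pi16 stromal cells of TNF-Tg than in those of each other library. Idi1 and Fdps, which make isoprenoid precursors, were among the 15 genes with the highest ratios. Idi1 was at 9.83 CPM in WT, 66.8 in TNF-Tg, 15.2 in tdT1 and 19.7 in tdT2 (log2 2.76, 2.54 to 3.00), and Fdps at 17.9, 121, 20.2 and 24.3 CPM (log2 2.75, 2.58 to 2.92). Hmgcs1, an early enzyme of the pathway, was at 24.3, 96.8, 46.3 and 44.0 CPM, and Cyp51 at 8.51, 50.1, 13.8 and 25.8 CPM. In the Cxcl14/Mgp stromal cells of the same libraries, the log2 ratios of TNF-Tg over WT were 3.37 for Idi1, 2.69 for Fdps and 2.45 for Hmgcs1. Mcoln2, an endolysosomal cation channel, was at 3.96 CPM in WT, 53.5 in TNF-Tg, 6.93 in tdT1 and 4.56 in tdT2 in the Myoc/Pi16 stromal cells.

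Sult1e1, the estrogen sulfotransferase, had log2 ratios of TNF-Tg over WT of −2.67 in the Pi16-led cells, 0.39 in the Myoc-led cells and 0.51 in the Fndc1-led cells, a difference that was not tested.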
